A study of Mus musculus with 25 samples.

Results

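miR-221 and miR-222 are a pair of microRNAs made from neighbouring hairpins on the X chromosome, and both were counted in brain hemispheres of mice at 5 ages. The members were the rows of the deposited precursor count table that are named mmu-mir-221 and mmu-mir-222, called mir-221 and mir-222 from here on (mmu stands for mouse), which are 2 of its 1193 precursors. Both passed the filter on low counts, which left 425 precursors for testing. The animals were male mice of the inbred C57BL/6 strain, and the labels name no allele, transgene or agent for any of them. Each age (2, 9, 15, 24 and 30 months) had 5 libraries, 25 in all. The tissue was whole hemisphere, so each level is a mean over neurons, glia, vessels and the blood in them, and fewer cells of a type cannot be told apart from less RNA per cell.

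A microRNA is cut from a hairpin precursor and guides a silencing complex to messenger RNAs, mostly through its seed, the bases near its 5′ end that pair with the target. miR-221 and miR-222 share a seed and are usually made together from a common primary transcript. They are known for repressing Cdkn1b, which encodes the cell-cycle inhibitor p27, and the receptor tyrosine kinase Kit. They are best studied in endothelium, in vascular smooth muscle and in proliferating cells, including gliomas in the brain.

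The sequences show why the pair is treated together and why its reads can still be separated. The mature forms from the 3′ arm, which RefSeq lists on GRCm38.p6, are printed with bases 2 to 8, the seed, in capitals, as is the listed 5′ arm form of miR-221.
mmu-miR-221-3p: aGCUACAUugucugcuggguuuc
mmu-miR-222-3p: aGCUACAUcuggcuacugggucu
mmu-miR-221-5p: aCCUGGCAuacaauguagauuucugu
The 3′ arm forms are 23 bases each and have their first 8 bases in common. Aligned without gaps they match at 11 positions in all, so a whole read tells them apart. Of 1738 mature sequences in the RefSeq table, 3 carry this seed. The remaining one is miR-1928, which had 2 reads in all in the deposited table, each in a different library. It was not tested.

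The hairpins are shown with the listed mature forms in capitals and the rest in lower case.
Mir221: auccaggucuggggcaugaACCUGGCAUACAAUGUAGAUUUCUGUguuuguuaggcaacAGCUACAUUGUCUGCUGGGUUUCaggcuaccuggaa
Mir222: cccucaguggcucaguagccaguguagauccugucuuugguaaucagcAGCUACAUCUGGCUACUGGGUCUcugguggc
Mir221 (ENSMUSG00000065422.1) lies at chrX:19146294-19146388 and Mir222 (ENSMUSG00000065471.1) at chrX:19146893-19146971, both on the minus strand of GRCm38, with 504 bases between them. On that strand Mir222 comes first. No other gene of the GENCODE M21 annotation overlaps the span, so the hairpins are intergenic there. The nearest gene upstream is Gm14636, a noncoding transcript on the same strand, 10009 bases away. The counts join both arms of a hairpin, so the arms could not be followed separately.

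Library depth ran from 3779993 to 9524043 counts, with a median of 5608617. mir-221 was read 7632 to 21366 times per library and mir-222 6336 to 19051 times, ranges that hold the differences in depth as well. As a share of the library, mir-221 made up 0.172% to 0.224% and mir-222 0.159% to 0.215%. The 9 brain-enriched precursors of the marker list, which were the 3 of miR-124, the 3 of miR-9, both of miR-128 and mir-138-1, summed to 63462 to 84460 counts per 1000000 counts of the library (CPM). The liver precursor mir-122 stayed between 0.160 and 5.99 CPM, and the 5 muscle precursors between 188 and 279 CPM in sum. The 5 libraries of sequencing lane 3, 1 of each age had a median depth of 7156729 counts and stood high for both members, as described beside the results.

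mir-221 was lowest at 2 months. In the order of the replicates it stood at 2134, 1773, 1743, 1767 and 1852 CPM at 2 months, with library sizes scaled by trimmed mean of M values (TMM). At 9 months it stood at 2000, 2172, 2106, 1999 and 2044 CPM, and at 15 months at 2050, 2158, 2150, 2104 and 1934 CPM. At 24 months the values were 1854, 1966, 2093, 2051 and 1927 CPM, and at 30 months 1906, 1919, 2259, 2044 and 2262 CPM. In words, 4 of the 5 libraries of 2 months lay below every one of the 20 older libraries. The fifth, replicate 1 from lane 3, lay within the range of every age but 24 months. How many of all tested precursors set 2 months apart in this way was not counted. The group means were 1854 ± 162 CPM at 2 months, 2064 ± 74.6 at 9 months, 2079 ± 91.7 at 15 months, 1978 ± 95.7 at 24 months and 2078 ± 175 CPM at 30 months (SD, n = 5).

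mir-222 had a similar level and a wider spread. At 2 months the replicates stood at 2049, 1961, 1685, 1551 and 1737 CPM, and at 9 months at 1616, 1916, 1692, 1774 and 1726 CPM. At 15 months they stood at 1720, 1838, 2054, 1810 and 1850 CPM, at 24 months at 1787, 1805, 1906, 1889 and 1611 CPM, and at 30 months at 1703, 1705, 2253, 1993 and 2017 CPM. Every age overlapped every other, and the highest and lowest libraries of the series belonged to 30 and 2 months. The means in order of age were 1797 ± 204, 1745 ± 112, 1854 ± 123, 1800 ± 117 and 1934 ± 233 CPM (SD, n = 5).

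**Figure D1:**
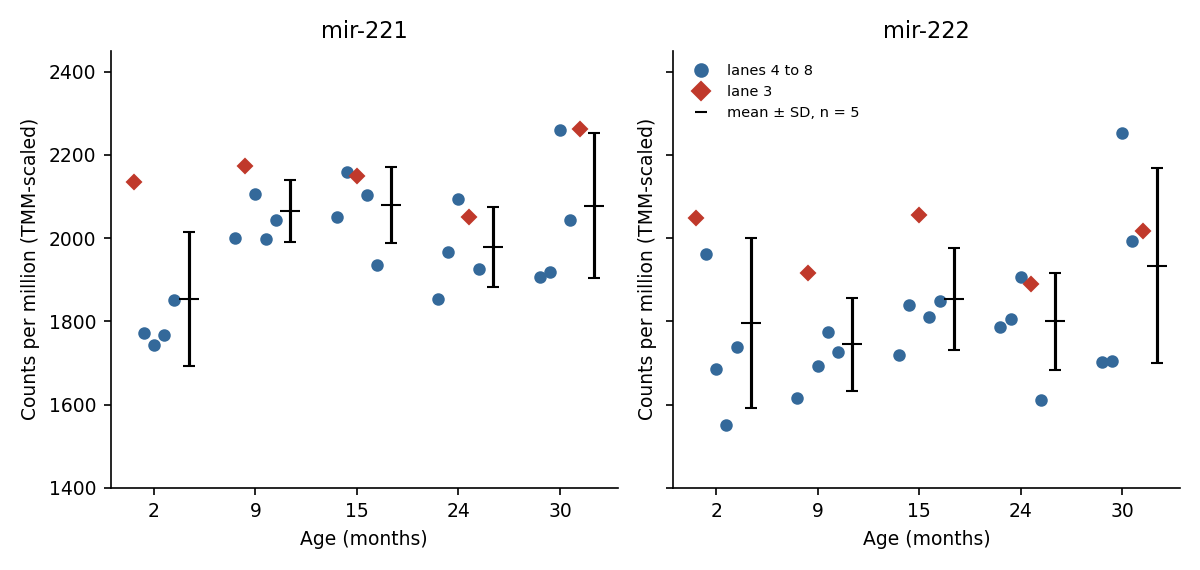
TMM-scaled CPM (vertical axis, which does not start at 0) of mir-221 (left) and mir-222 (right) by age in months, 1 point per library, with the mean ± SD of 5 libraries beside each age and lane 3 as red diamonds. For mir-221 the 4 libraries of 2 months outside lane 3 lie between 1743 and 1852 CPM, below every older library. How often other precursors split so was not counted. For mir-222 the ages overlap throughout.

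The widest interval, 30 against 2 months, asked whether the pair changed between young adulthood and old age. mir-221 rose by 12.1%, a log2 fold change of 0.17 ± 0.06 (SE, n = 5 per age, edgeR adjusted p = 0.0265). The 95% interval ran from 1.03-fold to 1.22-fold. mir-222 had a log2 fold change of 0.11 ± 0.08 and did not pass (edgeR adjusted p = 0.316), with an interval from 0.962-fold to 1.21-fold, so a rise as large as that of mir-221 lay within it. The value of mir-222 moved with the libraries in the fit. It was 0.012 without replicate 3 of 30 months and 0.052 without replicate 5 of 30 months. Without replicates 3 and 4 of 2 months it was 0.054 and 0.046. Leaving out a library of an age not compared moved it too, to between 0.071 and 0.105, so these drops do not belong to the named libraries alone. Upper-quartile scaling gave 0.031. Of the 425 precursors 36.9% were called in this comparison, 19.1% as higher and 17.9% as lower, so 1 call among 2 members is near the background. TMM gave 81 higher and 76 lower calls and upper-quartile scaling 50 higher and 91 lower, so the balance of directions depended on the scaling.

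The call of mir-221 was not stable. It was lost under RLE scaling (log2 fold change 0.14, adjusted p = 0.0574), upper-quartile scaling (0.091, adjusted p = 0.350), a stricter filter (0.13, adjusted p = 0.0551), DESeq2 (0.14, adjusted p = 0.0610) and with only both ages in the fit (0.13, adjusted p = 0.201). It was kept with library totals (0.14, adjusted p = 0.0352), without a filter (0.17, adjusted p = 0.0409), with lane as a covariate (0.16, adjusted p = 0.00391) and without lane 3 (0.16, adjusted p = 0.0106). Leaving out 1 library at a time ended it in 13 of 25 refits. Of the compared ages these were 2-month replicates 2 (0.11) and 3 (0.11) and 30-month replicates 3 (0.10) and 5 (0.094), with adjusted p from 0.138 to 0.193. The others were replicates 1, 3 and 5 of 9 months, 1, 4 and 5 of 15 months, and 1, 2 and 3 of 24 months (0.13 each, adjusted p from 0.0631 to 0.0707). mir-221 lay above 0 in all of these fits.

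**Figure D2:**
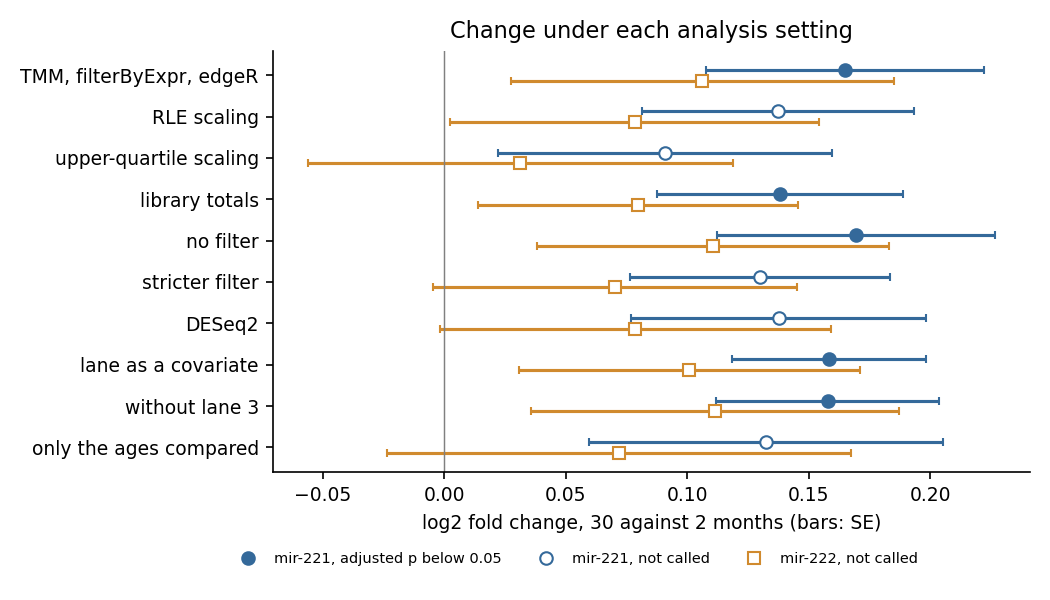
Log2 fold change of mir-221 (circles) and mir-222 (squares) between 2 and 30 months (horizontal axis, bars are standard errors) under 10 analysis settings, filled where the adjusted p was below 0.05. mir-221 lies between 0.09 and 0.17 and is filled in 5 settings, and mir-222 lies between 0.03 and 0.11 and is filled in none.

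Sequencing lane moved with the level of mir-221, and its part in the result was not tested beyond the fits with lane and without lane 3. The 5 libraries of lane 3 averaged 2154 ± 75.8 CPM (SD, n = 5) and the other 20 averaged 1975 ± 137 CPM (SD, n = 20). For mir-222 these averages were 1985 ± 77.1 CPM (SD, n = 5) and 1786 ± 157 CPM (SD, n = 20). Within lane 3 the log2 difference of mir-221 between 30 and 2 months was 0.08. It was 0.13 in lane 5, 0.12 in lane 6 and 0.29 in lane 7, so in all 4 lanes with libraries of both ages mir-221 was higher at 30 months. Each of these values sets a single library against a single library. How many of all tested precursors were higher in all 4 lanes was not counted. mir-222 gave -0.02 in lane 3, 0.02 in lane 5, 0.14 in lane 6 and 0.37 in lane 7. Outside lane 3 the 4 libraries of 2 months reached at most 1852 CPM of mir-221, and the 16 older ones were at least 1854 CPM. This narrow split was seen after the values were known and was not counted over the other precursors.

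Adjacent ages were compared to place any change in time. Between 2 and 9 months mir-221 had a log2 fold change of 0.16 ± 0.06 and did not pass (SE, n = 5 per age, edgeR adjusted p = 0.0956, with 7.76% of all precursors called, 1.88% as higher and 5.88% as lower). This interval alone was nearly as wide as the change to 30 months (0.17). It passed with lane as a covariate (0.16, adjusted p = 0.0152) and without lane 3 (0.20, adjusted p = 0.0122). It also passed without 2-month replicate 1 (0.20, adjusted p = 0.0194), 9-month replicate 4 (0.17), 15-month replicate 3 (0.17) or 30-month replicate 4 (0.17, adjusted p of the last 3 from 0.0446 to 0.0465). Within lanes, 9 months lay above 2 months by 0.03 in lane 3, 0.25 in lane 4, 0.20 in lane 5 and 0.21 in lane 6. These values also set a single library against a single library and were not counted over the other precursors.

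Later ages were also set against 2 months, comparisons added after the data were seen. mir-221 rose by 0.17 ± 0.06 from 2 to 15 months (SE, n = 5 per age, edgeR adjusted p = 0.0476, 18.1% of all precursors called, 6.82% as higher and 11.3% as lower). That call was lost under upper-quartile scaling (0.11), with only those ages in the fit (0.15) and in 11 of 25 refits without 1 library (replicates 2 and 3 of 2 months, 1, 3 and 5 of 9 months, 1, 2 and 4 of 15 months, and 1, 2 and 3 of 24 months, adjusted p from 0.0530 to 0.124). At 24 months mir-221 lay 0.09 ± 0.06 above 2 months and did not pass (edgeR adjusted p = 0.244, 22.6% of all precursors called, 11.1% as higher and 11.5% as lower), although it did without lane 3 (0.13, adjusted p = 0.0409). mir-222 lay at 0.05 ± 0.08 and 0.0024 ± 0.08 in the same comparisons (edgeR adjusted p = 0.752 and 0.987).

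No step between neighbouring ages after 9 months passed for mir-221. Its log2 fold changes were 0.01 ± 0.06 from 9 to 15 months, -0.07 ± 0.06 from 15 to 24 months and 0.07 ± 0.06 from 24 to 30 months (SE, n = 5 per age, edgeR adjusted p from 0.507 to 0.998). The first of these turned negative with lane as a covariate and under upper-quartile scaling. The background was 0% of precursors called from 9 to 15 months, 0.235% from 15 to 24 months and 8.71% from 24 to 30 months (6.12% higher and 2.59% lower). For mir-222 the 4 steps in order were -0.04, 0.09, -0.04 and 0.10, each ± 0.08, and none passed (edgeR adjusted p from 0.484 to 0.998).

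No steady trend with age was detected for either member. The slope was 0.04 ± 0.02 log2 units per 12 months for mir-221 (edgeR adjusted p = 0.176) and 0.04 ± 0.03 for mir-222 (edgeR adjusted p = 0.284), while 35.5% of all precursors passed (19.5% upward and 16% downward). The test for any difference among the 5 ages gave adjusted p = 0.0889 for mir-221 and 0.522 for mir-222 (edgeR, 32.7% of precursors called). The test for a departure from the straight line gave 0.259 and 0.729 (edgeR, 7.06% called). With lane as a covariate mir-221 passed both, with adjusted p = 0.00980 for any difference and 0.0398 for the departure. Without lane 3 it passed both as well (0.00893 and 0.0396). Any difference also passed without replicate 1 of 2 months, 2 or 4 of 9 months, 3 of 15 months, 5 of 24 months or 4 of 30 months (adjusted p from 0.0156 to 0.0396). The slope of mir-221 did not pass with lane or without lane 3 (adjusted p = 0.176 and 0.225).

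The pair was also counted as 1, since a target with this seed match can be met by either member. The summed level was 3650 ± 337 CPM at 2 months and 4012 ± 398 CPM at 30 months (SD, n = 5), with a log2 fold change of 0.14 ± 0.06 (SE, edgeR adjusted p = 0.0922). It passed with lane as a covariate (0.13, adjusted p = 0.0370) and without 2-month replicate 1 (0.15, adjusted p = 0.0448). The slope of the sum was 0.04 ± 0.02 log2 units per 12 months (edgeR adjusted p = 0.172).

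The ratio of the members within a library does not depend on how libraries are scaled. It was tested between 30 and 2 months and as a slope on age, neither of which asks about a peak at a middle age. The log2 ratio of mir-221 to mir-222 reads was 0.06, -0.15, 0.05, 0.19 and 0.09 in the replicates of 2 months and 0.16, 0.17, 0.0042, 0.04 and 0.17 in those of 30 months. The ages overlapped. The mean was 0.05 ± 0.12 at 2 months and 0.11 ± 0.08 at 30 months (SD, n = 5), a difference of 0.06 (two-sided exact permutation test, p = 0.405, adjusted over 2 ratio tests p = 0.810, smallest possible p = 0.00794). The difference was 0.011 without replicate 2 of 2 months and 0.095 without replicate 4 of 2 months. Taken within the 4 shared lanes it averaged 0.029 (two-sided exact sign-flip permutation test, p = 0.50, a test that 4 lanes are too few to bring to 0.05). The different outcomes of the members at 30 months are thus not shown to be a difference between them.

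Of the 5 ages the ratio was highest at 9 months, with 0.31, 0.18, 0.32, 0.17 and 0.24 (mean 0.24 ± 0.07, SD, n = 5). It averaged 0.17 ± 0.09 at 15 months and 0.14 ± 0.07 at 24 months (SD, n = 5). At 9 months the mean of mir-221 was above that of 2 months, although that change did not pass (edgeR adjusted p = 0.0956). The mean of mir-222 was lowest at 9 months. The highest library of 2 months (0.19) lay above the lowest of 9 months (0.17), and this pair of ages was not tested. The lowest library of 9 months (0.172) lay just above the highest of 30 months (0.171), a pair of ages also not tested. The slope over all ages was 0.0014 log2 units per 12 months (two-sided permutation test, p = 0.956).

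**Figure D3:**
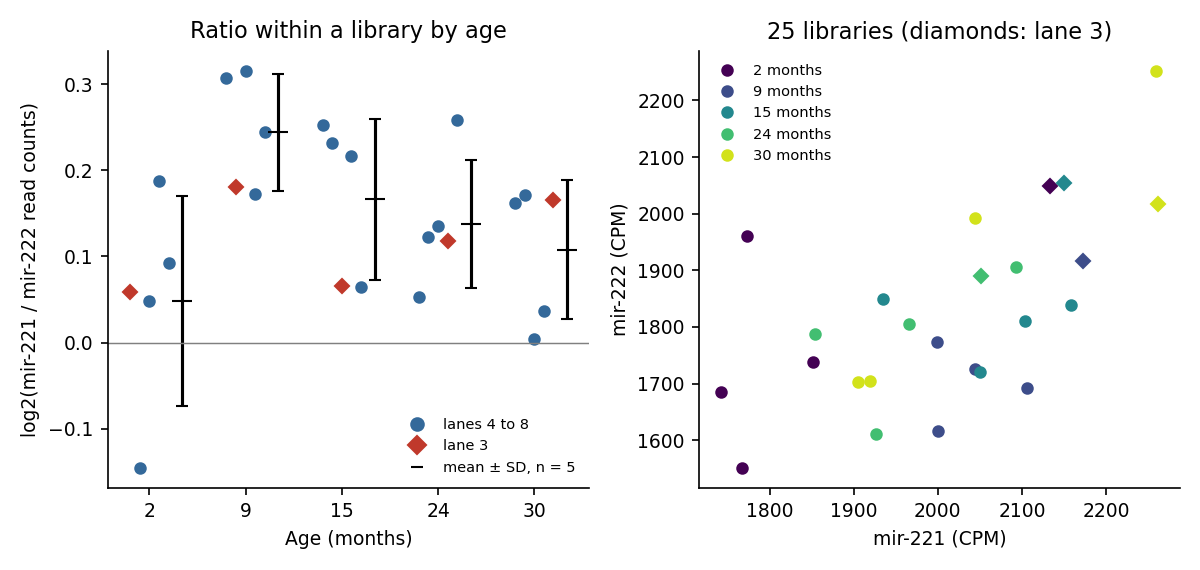
Left, log2 ratio of mir-221 to mir-222 read counts by age in months, 1 point per library, with mean ± SD of 5 libraries and lane 3 as red diamonds. Right, mir-222 against mir-221 in CPM over the 25 libraries, coloured by age with lane 3 as diamonds. The mean ratio is highest at 9 months (0.24), and 1 library of 2 months lies below 0 (-0.15).

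Across libraries the members rose and fell together in part. Pearson's r between their log2 CPM was 0.61 and Spearman's rho 0.62 over 25 libraries (permutation p = 0.00116 and 0.00106, both 0.00174 adjusted over 6 relations). Without the 2 libraries farthest from the median of mir-221 r was 0.52 (permutation p = 0.0113). After the mean of each age was removed r was 0.72 and rho 0.65 (permutation p adjusted 2.40e-04 and 0.00174). With age and lane means both removed r was 0.49 and rho 0.38 (adjusted permutation p = 0.0164 and 0.0586). That last relation rested on few libraries, as r was 0.32 (permutation p = 0.140) without the 2 farthest. The permutations treat residuals as exchangeable although means had been taken out.

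Other precursors followed each member more closely than its partner did. Among the other precursors averaging 10 CPM or more over all libraries, mir-222 ranked 12 in likeness to mir-221, and mir-221 ranked 19 in likeness to mir-222. The values share libraries, lanes and scaling, so they are given as a description. The nearest to mir-221 were mir-26b (r = 0.75), mir-29a (0.75), mir-1839 (0.73), mir-320 (0.71) and mir-592 (0.70). The nearest to mir-222 were mir-31 (0.78), mir-592 (0.76), mir-181b-2 (0.73), mir-181b-1 (0.71) and mir-383 (0.71), of which the mir-181b copies carry the same mature sequence.

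With age and lane means removed, the neighbours changed. mir-203 (0.80), mir-1839 (0.77), let-7e (0.74), let-7g (0.74) and let-7f-2 (0.72) then lay nearest to mir-221. mir-128-1 (0.93), mir-128-2 (0.92), mir-22 (0.87), mir-676 (0.85) and mir-668 (0.84) lay nearest to mir-222, and mir-221 ranked 66. mir-128-1 and mir-128-2 are copies that both give the neuron-enriched miR-128, so their counts are not separate. Their likeness to mir-222 concerns the variation between libraries that was left after age and lane means were removed. Whether their course with age differs from that of mir-222 was not tested. From 2 to 30 months mir-128-1 fell, with a log2 fold change of -0.37 ± 0.09 (SE, n = 5 per age, edgeR adjusted p = 0.00301). mir-222 lay at 0.11 ± 0.08 and did not pass (edgeR adjusted p = 0.316).

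**Figure D4:**
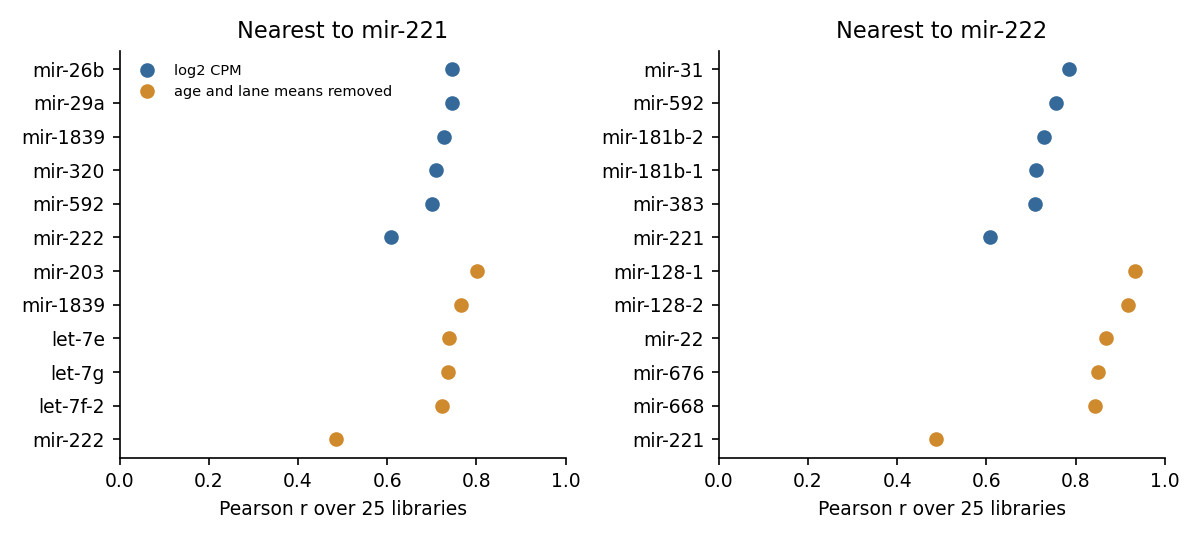
Pearson's r over 25 libraries between mir-221 (left) or mir-222 (right) and the 5 precursors most like it, with the partner last in each set; blue on log2 CPM, orange with age and lane means removed. With those means removed mir-128-1 and mir-128-2 reach 0.93 and 0.92 with mir-222, and the partner lies at 0.49 in both panels.

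Lists of related precursors were read beside the pair for 30 against 2 months, where the median log2 fold change of all 425 was 0.05. Of 17 endothelial, mural and angiogenesis-linked precursors 5 rose and 1 fell, against 19.1% higher and 17.9% lower over all precursors. The median of the list was 0.18. The rises include mir-199a-1 and mir-199b, hairpins of the same family whose counts may not be separate (edgeR adjusted p = 0.0159 and 0.0235). mir-10a (1.09 ± 0.17), the hypoxia-induced mir-210 (0.61 ± 0.09) and mir-199b (0.30 ± 0.10) rose and mir-296 (-1.20 ± 0.16) fell (SE, n = 5 per age, edgeR adjusted p from 6.51e-06 to 0.0235). The endothelial mir-126a lay at 0.02 ± 0.04 and mir-143 of smooth muscle at -0.00 ± 0.05 (edgeR adjusted p = 0.748 and 0.952). Upper-quartile scaling gave 2 higher and 1 lower, and without lane 3 there were 3 higher and 2 lower, with mir-199b not called in either.

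Of 6 inflammation-induced precursors, against 19.1% higher and 17.9% lower over all precursors, 4 rose and 1, mir-132, fell (-0.34 ± 0.06, SE, n = 5 per age, edgeR adjusted p = 9.77e-05), with a median of 0.47 and the same counts under each scaling and without lane 3. mir-21a rose from 3247 ± 175 to 4485 ± 339 CPM (SD, n = 5), with ranges of 3053 to 3451 and 4133 to 4861 CPM. Its log2 fold change of 0.47 ± 0.07 stood beside 0.17 for mir-221. For how many of all tested precursors the ranges of these ages lay apart was not counted.

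Of 7 blood-cell precursors 1 rose (mir-142a, not called under upper-quartile scaling) and 1 fell (mir-150), against 36.9% called over all precursors. The median of the list was 0.18, and mir-150 was its 1 member with a negative log2 fold change. No member of the list was at 0 in every library. The summed level of the list ranged from 3247 to 4736 CPM at 2 months and from 3437 to 5976 CPM at 30 months. At 9 months it reached higher, from 3827 to 9075 CPM. That sum overlapped between the ages, and its part in the change of mir-221 was not tested.

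Among 14 growth and cell-cycle-linked precursors 5 rose and 2 fell, against 19.1% higher and 17.9% lower over all precursors, with a median of 0.07 (3 and 2 under RLE and upper-quartile scaling). mir-21a and mir-93 (0.35 ± 0.06) rose, and mir-20a (-0.46 ± 0.12) and mir-17 (-0.29 ± 0.08) fell (SE, n = 5 per age, edgeR adjusted p from 1.34e-05 to 0.00690). The rises include mir-16-1 and mir-16-2, copies whose counts are not separate (edgeR adjusted p = 0.0443 and 0.0437), and mir-21a is in the inflammation list as well. mir-25 (0.04 ± 0.06) and the p53-induced mir-34a (0.19 ± 0.09) did not pass (edgeR adjusted p = 0.663 for mir-25 and 0.10 for mir-34a).

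On the X chromosome, which carries the pair, 36 other precursors were tested of 89 in the table, and 3 rose and 11 fell, against 19.1% higher and 17.9% lower over all precursors, with a median of -0.11. The falls numbered 12 or 13 under the other scalings, and 5 rose and 12 fell without lane 3. The 4 with the largest change were mir-450a-1 (-0.88 ± 0.16), mir-450b (-0.83 ± 0.13), mir-450a-2 (-0.76 ± 0.21) and mir-322 (-0.70 ± 0.10), which lie within chrX:53047997-53054349, far from the pair (SE, n = 5 per age, edgeR adjusted p from 1.34e-05 to 0.00726). Neighbours such as these 4 are not separate loci, so the count of falls does not speak for the whole chromosome. The abundant mir-1298 (-0.11 ± 0.16) and mir-98 (0.16 ± 0.09) did not pass (edgeR adjusted p = 0.615 and 0.168), although mir-98 did without lane 3 (0.26, adjusted p = 0.00313).

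**Figure D5:**
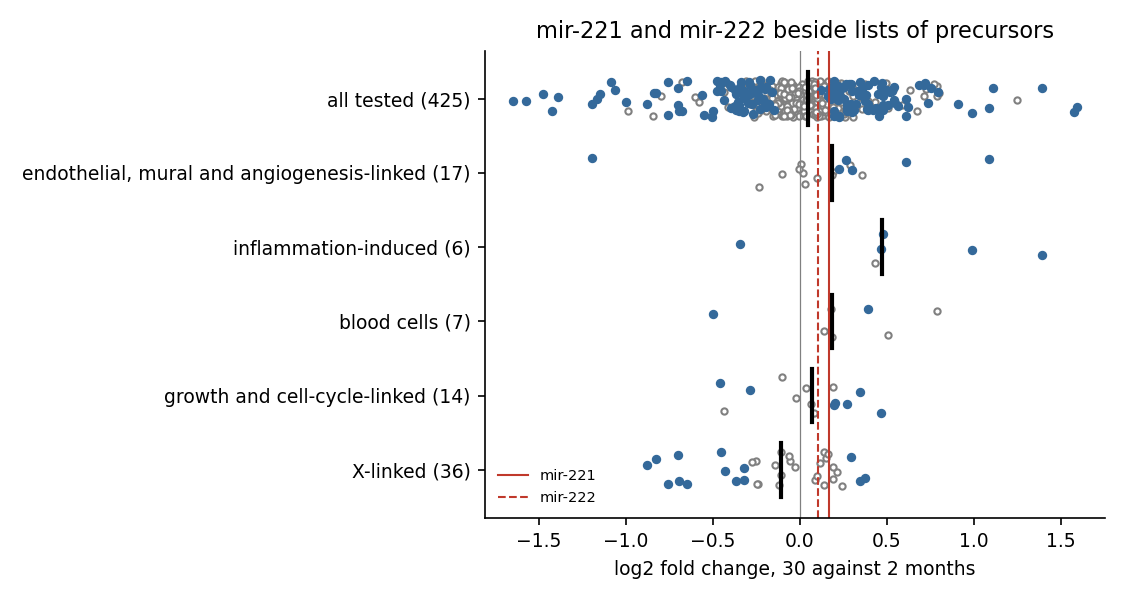
Log2 fold change between 2 and 30 months of every tested precursor and of those in 5 lists (numbers of precursors in brackets), filled where the adjusted p was below 0.05, with black bars at medians and vertical position within a row only separating points. The red lines mark mir-221 (0.17, solid) and mir-222 (0.11, dashed), close to the median of all 425 precursors (0.05).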

How the data were processed

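Small RNA from brain hemispheres was sequenced after TruSeq small RNA library preparation, per the labels' protocols, which use no molecular identifiers. The authors deposited raw read counts, 1 value per hairpin precursor and library, with both arms together. Per the submitters' processing notes, bcl2fastq 1.8.4, Trimmomatic 0.36 and SAMtools 1.3.1-9 were used; for the aligner, the counter, reads with several matches, strand and build, a statement was not given in the sources used here. Lane was read from the column names. Each title carries its own number, taken as separate animals; otherwise p-values measure only the spread between these samples. Counts of replicate pairs differed beyond sampling noise (chi-square per degree of freedom at least 19.6 over 50 pairs).

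All libraries entered 1 edgeR 4.0.16 quasi-likelihood fit (R 4.3.3, filterByExpr, TMM scaling, a mean per age; a second fit used age as a number), with Benjamini-Hochberg adjustment over 425 precursors and a threshold of 0.05. The pair total kept the TMM factors of the full table. SE is the log2 fold change divided by the square root of F. Intervals are 95%. DESeq2 1.42.0, other scalings, filters, lane as a covariate and leaving out each library were alternatives. Ratios and correlations used a pseudocount of 0.5, SciPy 1.17.1 and exact or 100000-resample permutation tests. The fitting code was tested on simulated data.

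Named were the members, the 5 nearest precursors by Pearson's r with a mean of at least 10 CPM, and from each list up to 4 called precursors with the largest change and 2 others with the highest level. For the inflammation-induced and blood-cell lists only some of the precursors that this rule gives were printed. mir-132 and the mir-16 copies were named besides. The members and lists were chosen with earlier results of these data known. Positions came from GENCODE M21 by symbol, or from RefSeq by mature name, for 1174 precursors.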

Additional observations from a re-analysis of the deposited data

Results flagged for a closer look

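Of 15 groups of 5 libraries checked for a single outlying value (mir-221, mir-222 and their ratio at each age), 1 stood out. mir-221 in 2-month replicate 1 was 2134 CPM, and its gap to the next library took up 0.721 of the range of the group, above Dixon's critical value of 0.71. Chance marks about 1 in 20 such groups. The library belongs to lane 3, whose 5 libraries lay between 2051 and 2262 CPM. Without it, the rise of mir-221 from 2 to 30 months was 0.18 on the log2 scale (edgeR adjusted p = 0.00773). The part of the lane in this value was not tested.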

How the results depend on the processing

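No paired analysis was possible because the labels give no replicate number that ages share; lanes, which ages do share, entered as a covariate and as within-lane differences instead. For mir-221 between 30 and 2 months the log2 fold change was 0.14 with RLE scaling, 0.091 with upper-quartile scaling, 0.13 with the stricter filter, 0.14 with DESeq2 and 0.13 with only the ages compared, none of which passed; without 1 library it ran from 0.094 to 0.18. mir-221 between 9 and 2 months passed with lane as a covariate (0.16) and without lane 3 (0.20), and ran from 0.13 to 0.20 without 1 library. Any difference among ages for mir-221 gave adjusted p = 0.00980 with lane and 0.00893 without lane 3, and 0.0156 to 0.243 without 1 library; the departure from the slope gave 0.0398 and 0.0396. The summed pair passed with lane (0.13) and ran from 0.057 to 0.15 without 1 library between 30 and 2 months. With TMM factors computed on the table with the pair as 1 row, added after seeing the data, it was 0.10 (adjusted p = 0.184). mir-221 between 15 and 2 months, a comparison added after seeing the data, did not pass with upper-quartile scaling (0.11) or only the ages compared (0.15) and ran from 0.14 to 0.20 without 1 library; between 24 and 2 months it passed without lane 3 (0.13). Changes of sign were all near 0: mir-221 from 9 to 15 months (-0.0084 with upper-quartile scaling, -0.011 with lane, -0.0086 to 0.031 without 1 library), mir-222 from 15 to 24 months (0.0036 with upper-quartile scaling), mir-222 from 2 to 15 months (-0.0043 with upper-quartile scaling), mir-222 from 2 to 24 months (-0.013 with RLE scaling and with DESeq2, -6.37e-04 with upper-quartile scaling, -0.014 with the stricter filter, -0.0066 with lane, -0.037 to 0.046 without 1 library) and the slope of the ratio (-0.0048 without lane 3, -1.34e-04 on residuals from lane means, -0.020 to 0.012 without 1 library). The causes were not tested. The other tests of mir-222, both slopes and the ratio at 30 months stayed on their side of the threshold under every alternative run, and between 119 and 172 precursors were called at 30 months. List counts by setting were added after seeing the data. mir-222 between 30 and 2 months ran from 0.012 to 0.12 and the ratio difference from 0.011 to 0.095 without 1 library. Each member had at least 6336 reads per library. Within an age every library is another animal on another lane, so their parts in the spread cannot be told apart there.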
